A study of Rattus norvegicus with 44 samples.

Results

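The 9 genes described here encode proteins of the myelin sheath or enzymes of its formation and were followed across the dentate gyrus (DG) of 44 male F344 rats: Mbp, Mog, Mobp, Mag, Cldn11, Cnp, Mal, Ugt8 and Opalin. They were taken by name from a table of 18347 gene identifiers, and all 9 were among the 15598 genes whose normalized value averaged 5 or more. Each rat gave 1 poly(A) library from the DG of 1 hemisphere. The YNG group (n = 10) was 6 months old and received vehicle. The other rats began treatment at an age of 12 months and reached about 18 months when the tissue was taken. They received vehicle (AV, n = 12), ABT-263 at 12 mg/kg (AA, n = 11), or dasatinib at 1.2 mg/kg with quercetin at 12 mg/kg (ADQ, n = 11). Treatments were given by oral gavage for 5 days a cycle over 8 cycles, and a last round came 2 weeks before the tissue was taken. ABT-263 inhibits proteins of the BCL-2 family, dasatinib is a tyrosine kinase inhibitor and quercetin is a plant flavonoid, and both treatments are used as senolytics, agents that remove senescent cells. The labels carry 12 months as the age of every older rat, and a deposited table of sample attributes gave the treatment for each of them.

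Myelin is the stack of membrane layers that oligodendrocytes wrap around axons in the brain. Mature oligodendrocytes form from precursor cells that also persist in the adult brain, and the transcription factors SOX10, OLIG2 and MYRF drive the genes of the sheath. The DG is dominated by tightly packed granule cell bodies, with myelinated axons running mainly through the hilus and the layers around it. Mbp holds the cytoplasmic faces of the layers together, Mobp is a second small basic protein of compact myelin, Cldn11 forms the tight junctions between layers and Mal is a proteolipid of membrane rafts. Mag is the adhesion molecule next to the axon, Mog lies on the outer surface of the sheath and Opalin is a membrane glycoprotein of oligodendrocytes. Cnp keeps cytoplasmic channels through the sheath open, and Ugt8 makes the galactolipids of the membrane.

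The sequence just before the transcription start is shown for 4 of the genes. RefSeq windows of the GRCr8 build were matched for 8 of the 9 genes, with 2 starts for Mbp, and only the 250 bases before the start were read. A pair of short motifs were searched on both strands, ACAAAG, the core recognized by SOX factors, and CTGGNAC, recognized by MYRF. ACAAAG was in 16.3% of 33469 windows of all genes and in those of 5 of the 8 myelin genes (Mag, Opalin, Mobp, Cnp and the second start of Mbp). CTGGNAC was in 14.8% of all windows and in those of 6 of the 8 (Mag, Opalin, Cldn11, Mal, Cnp and the first start of Mbp). Both motifs stood in 2.26% of all windows and in 3 of the 8 genes, Opalin, Mag and Cnp, and no 2 matches of different motifs overlapped. Mobp had 8 matches of ACAAAG and none of CTGGNAC, and Ugt8 had neither. The windows shown are those of the 3 genes with both motifs and that of Mobp. Whether the motifs relate to how closely the genes varied together was not tested. The windows are written 5′ to 3′ on the strand of the gene, with either motif in capitals on whichever strand it was read. They lie at chr1:249858191-249858440 (minus strand) for Opalin, chr1:95291045-95291294 (minus strand) for Mag, chr10:86011254-86011503 (plus strand) for Cnp and chr8:128746982-128747231 (plus strand) for Mobp. A match describes the letters and is not evidence of binding.
Opalin: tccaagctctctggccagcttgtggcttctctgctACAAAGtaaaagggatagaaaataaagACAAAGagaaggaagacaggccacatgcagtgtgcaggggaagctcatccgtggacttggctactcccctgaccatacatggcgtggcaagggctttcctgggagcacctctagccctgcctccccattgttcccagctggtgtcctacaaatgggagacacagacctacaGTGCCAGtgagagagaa
Mag: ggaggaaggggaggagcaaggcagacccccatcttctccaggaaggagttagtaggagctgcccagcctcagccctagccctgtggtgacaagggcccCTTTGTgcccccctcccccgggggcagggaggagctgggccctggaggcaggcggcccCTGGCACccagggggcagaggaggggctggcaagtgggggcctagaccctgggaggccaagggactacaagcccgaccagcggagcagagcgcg
Cnp: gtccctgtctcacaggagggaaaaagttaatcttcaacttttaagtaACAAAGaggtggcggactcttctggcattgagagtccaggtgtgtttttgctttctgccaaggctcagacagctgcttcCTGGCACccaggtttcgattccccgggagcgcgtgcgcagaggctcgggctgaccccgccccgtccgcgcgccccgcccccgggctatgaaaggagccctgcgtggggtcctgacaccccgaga
Mobp: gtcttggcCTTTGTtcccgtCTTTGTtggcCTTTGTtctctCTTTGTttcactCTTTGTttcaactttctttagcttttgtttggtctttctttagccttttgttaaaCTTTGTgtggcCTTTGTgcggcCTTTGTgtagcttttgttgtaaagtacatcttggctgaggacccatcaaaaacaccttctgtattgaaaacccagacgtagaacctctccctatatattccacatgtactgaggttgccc

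The values are reads scaled by the authors between libraries with the median ratio, and are called normalized values here. They are not divided by gene length, so levels were compared between rats and not between genes. Depth could only be estimated, from the value that a single read takes in genes listed on 1 row, and came to about 10167367 to 24329811 reads per library. The rats were split by rat number into series a (22 rats: 6 YNG, 6 AV, 5 AA, 5 ADQ) and series b (22 rats: 4, 6, 6 and 6 in the same order). The labels do not name these as a batch, and results are also given within each. Series a held numbers up to 4011, with V1 to V6 of YNG, whose numbering is separate. Series b is not a single run, with AV rats at 4566 to 4572 and AA and ADQ rats at 4031 to 4110. Within series b, treatment cannot be told apart from this gap in comparisons with AV. Markers of the tissue were present in every rat, with Prox1 of granule cells between 608.7 and 3811, and Wfs1 of CA1 pyramidal cells, from the neighboring hippocampal field, varied from 597.1 to 23420. In bulk tissue, a larger number of oligodendrocytes and more RNA per oligodendrocyte cannot be told apart.

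Among the genes of compact myelin, Mbp ran from 26120 to 85453 in YNG (median 48773), from 32821 to 128718 in AV (median 54191), from 34835 to 105800 in AA (median 46685) and from 35885 to 54628 in ADQ (median 42036). The groups overlapped throughout, and the highest values belonged to 2 AV rats and 2 AA rats. Mobp ran from 2342 to 6157 in YNG (median 2998), from 3060 to 9909 in AV (median 4020), from 2709 to 9075 in AA (median 3667) and from 3023 to 4254 in ADQ (median 3692). All 12 AV rats, 10 of 11 AA rats and all 11 ADQ rats lay above the YNG median of Mobp, although only 3 AV and 2 AA rats passed the highest YNG rat. Cldn11 ran from 1329 to 2752 in YNG (median 1727), from 1568 to 4323 in AV (median 2314), from 1380 to 4615 in AA (median 1912) and from 1563 to 2177 in ADQ (median 1973). Mal ran from 984.9 to 2059 in YNG (median 1174), from 1103 to 3468 in AV (median 1383), from 1014 to 2840 in AA (median 1373) and from 1179 to 1738 in ADQ (median 1339). For these 2 genes, as for each of the 9, the ADQ rats sat inside the YNG range, and 11 AV and 11 ADQ rats lay above the YNG median of Mal.

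Among the surface genes, Opalin lay furthest from YNG in the older groups. Mag ran from 1355 to 3103 in YNG (median 2407), from 1945 to 4721 in AV (median 2823), from 1625 to 5108 in AA (median 2359) and from 1756 to 2630 in ADQ (median 2173). Mog ran from 445.8 to 923.9 in YNG (median 571.0), from 525.2 to 1398 in AV (median 694.8), from 494.9 to 1342 in AA (median 646.0) and from 511.4 to 816.6 in ADQ (median 605.2). Opalin ran from 316.1 to 1197 in YNG (median 450.7), from 312.4 to 2766 in AV (median 700.8), from 505.0 to 1835 in AA (median 694.4) and from 522.2 to 933.5 in ADQ (median 756.7). All 11 AA rats, all 11 ADQ rats and 10 of 12 AV rats exceeded the YNG median of Opalin. Within AV this gene had both the widest range of the 9, with the highest rat 8.85 times the lowest, and 1 rat under the lowest YNG rat.

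Cnp ran from 3148 to 6957 in YNG (median 4124), from 3850 to 9040 in AV (median 5299), from 3615 to 8726 in AA (median 4535) and from 3907 to 4919 in ADQ (median 4212). Ugt8 ran from 368.7 to 735.8 in YNG (median 426.9), from 292.7 to 1037 in AV (median 520.0), from 389.1 to 996.0 in AA (median 483.4) and from 374.7 to 626.1 in ADQ (median 520.9). Ugt8 was the gene with 2 AV rats below the lowest YNG rat, and its ADQ rats were above the YNG median in 10 of 11.

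**Figure D1:**
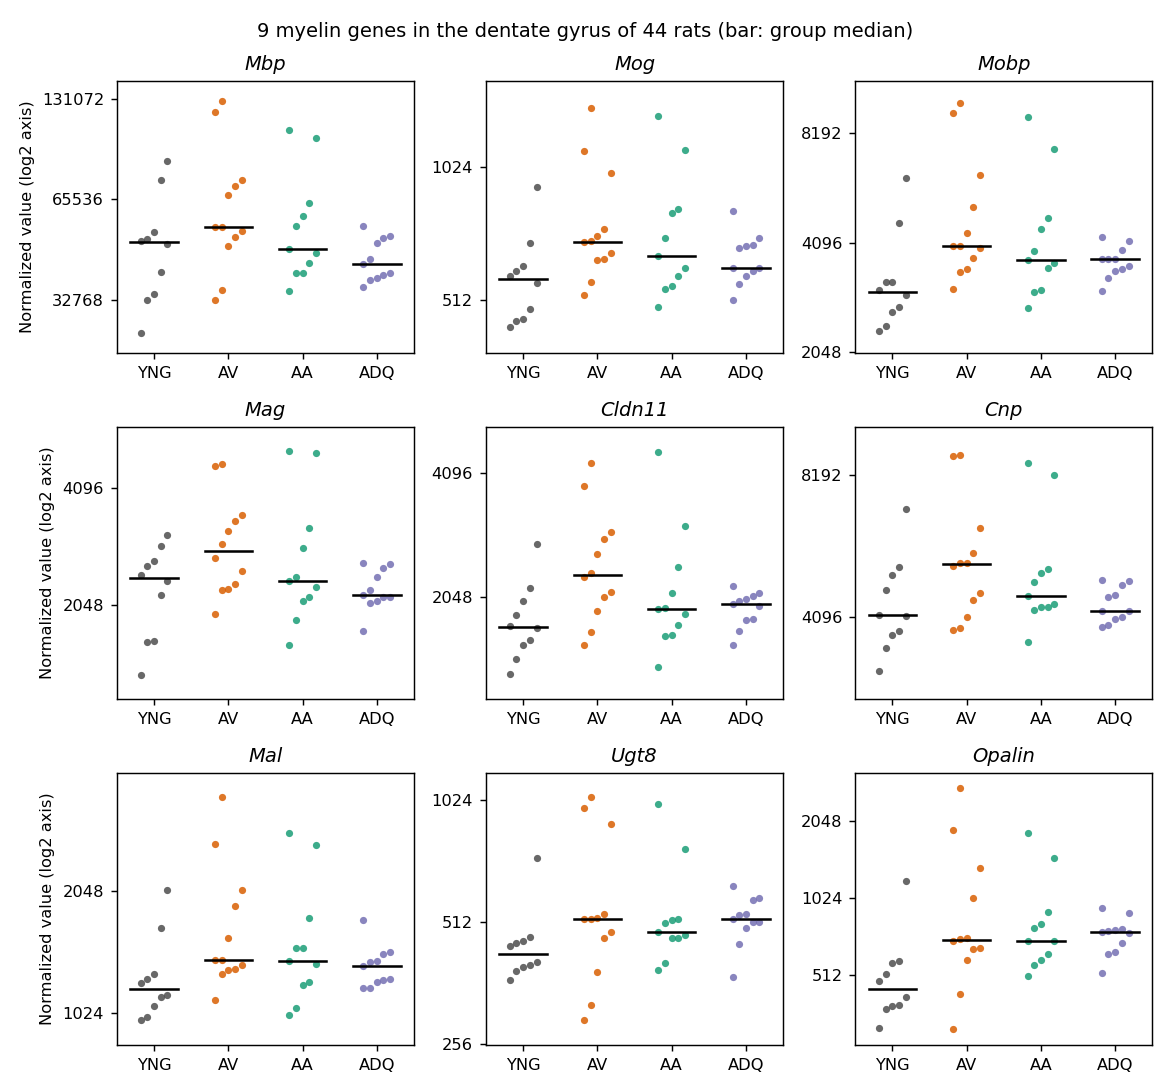
Normalized value (log2 axis) of each of the 9 myelin genes in YNG, AV, AA and ADQ, with 1 point for each of 44 rats and a bar at the group median. The same few AV and AA rats stand highest in the plots of most genes, whereas the 11 ADQ rats stay close together.

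Comparing AV with YNG addressed the difference between older and young rats without treatment. All 9 genes were higher in AV, with differences in log2(value + 1) from 0.27 (Ugt8) to 0.74 (Opalin) and a median of 0.39, where the median over all genes was -0.0017. None of the 9 passed an adjusted p of 0.05 by limma (adjusted p 0.0906 to 0.334), a threshold at which 1.81% of all genes were called higher. At the unadjusted p of 0.05 that the study used, 7 of the 9 were higher, against 10.6% of all genes. Opalin differed by 0.74 ± 0.25 (SE, unadjusted limma p = 0.00454, adjusted p = 0.0922) and Mobp by 0.56 ± 0.19 (unadjusted limma p = 0.00427, adjusted p = 0.0906). The differences for Cldn11 (0.45), Mog (0.40), Mag (0.39), Mal (0.39) and Cnp (0.30) also passed the unadjusted threshold. Those for Mbp (0.38, 95% interval -0.026 to 0.79) and Ugt8 (0.27, -0.062 to 0.60) did not. Adjusted calls appeared when 1 rat was left out, 3 genes without the YNG rat V6, 3 without the AV rat 4567 and 2 without the AV rat 4572. Markers of blood vessels also differed in this comparison, with 5 of 8 endothelial genes higher at the adjusted threshold, and their part in the result was not tested. Within series a the median difference was 0.41, and within series b it was 0.39, with all 9 genes higher in each, and 5 and 2 of them past the unadjusted threshold.

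In AA against YNG, all 9 genes were again above YNG, by 0.21 (Mbp) to 0.70 (Opalin) with a median of 0.25, beside 0.00067 over all genes. No myelin gene was called at the adjusted threshold by limma (adjusted p 0.0795 to 0.533), where 1.55% of all genes were called higher, and 3 passed the unadjusted threshold, where 12.6% of all genes did. These were Opalin (0.70 ± 0.25 SE, adjusted limma p = 0.0795), Mobp (0.38 ± 0.19) and Mog (0.32 ± 0.15). Scaled to the same total, 8 of the 9 passed the unadjusted threshold in AA, 9 in AV and 2 in ADQ. Over all genes 5175, 3474 and 5220 of 15607 passed it in the same order, in either direction. Within series a and b, 2 and 1 of the 9 passed it in AA. The count of 3 fell to 1 without any single one of the YNG rats V4, V5, V10 and V11 or the AA rats 3985, 3996, 4035 and 4107, and was 5 without V6. Opalin alone was called at the adjusted threshold without V6 or without the AA rat 3985. The medians were 0.31 within series a and 0.23 within series b. Other markers were higher in the same comparison, with 6 of 10 immediate early genes and 5 of 8 endothelial genes past the unadjusted threshold and 2 and 1 past the adjusted one, and their part in the result was not tested.

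In ADQ against YNG, the differences were smaller than those of AV and AA for each of the 9 genes. They ran from -0.10 (Mbp) to 0.58 (Opalin) with a median of 0.11, beside 0.0057 over all genes, and 8 of the 9 were positive, with Mbp also positive (0.038) when libraries were scaled to the same total. None was called at the adjusted threshold by limma (adjusted p 0.128 to 0.975), where 3.12% of all genes were called higher. Opalin alone passed the unadjusted threshold, where 13.5% of all genes did (0.58 ± 0.25 SE, unadjusted limma p = 0.0274, adjusted p = 0.128), and did not without the YNG rat V9. When the ADQ and YNG rats were fitted without the other groups, Opalin rose at the adjusted threshold (limma adjusted p = 0.0276). The intervals for Cnp (0.0093, 95% interval -0.28 to 0.30) and Mag (0.018, -0.32 to 0.36) reached about as far below YNG as above it. The medians within the series were 0.12 in series a and 0.14 in series b, with 0 of 9 past the unadjusted threshold by limma in either.

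When the mean of the 3 older groups was set against YNG, Opalin was the only myelin gene that rose at the adjusted threshold (0.67 ± 0.21 SE, adjusted limma p = 0.029), which 6.65% of all genes passed upward. This call was lost without V1, V2, V3, V4 or V9, each a YNG rat, with adjusted p between 0.059 and 0.0753, and within series b (0.59, adjusted p = 0.576). Mog, Mobp and Cldn11 passed only the unadjusted threshold with it, 4 genes where 15.7% of all genes did. That count was 2 without V4, V10 or V11, 7 without V6, and 3 and 0 within series a and b. Without V6 the adjusted calls were 3, Opalin with Mog and Mobp, and with libraries scaled to the same total they were 7. Of 8 endothelial genes, 5 rose at the adjusted threshold in the same comparison, and their part in the result was not tested. The 3 comparisons with YNG share the same 10 YNG rats, so they are given side by side and not as repeats of one another. Whether the difference from YNG itself differed between the series was tested with an interaction term. No myelin gene passed the threshold (lowest adjusted limma p = 0.551, 0.656 and 0.896 for AV, AA and ADQ), while 697, 280 and 8 of all genes were called. In AV the SE of this term was 0.29 (Cnp) to 0.50 (Opalin), where the differences from YNG were 0.27 to 0.74. The test therefore could not exclude differences between the series of that size, and Opalin in AV differed by 0.54.

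**Figure D2:**
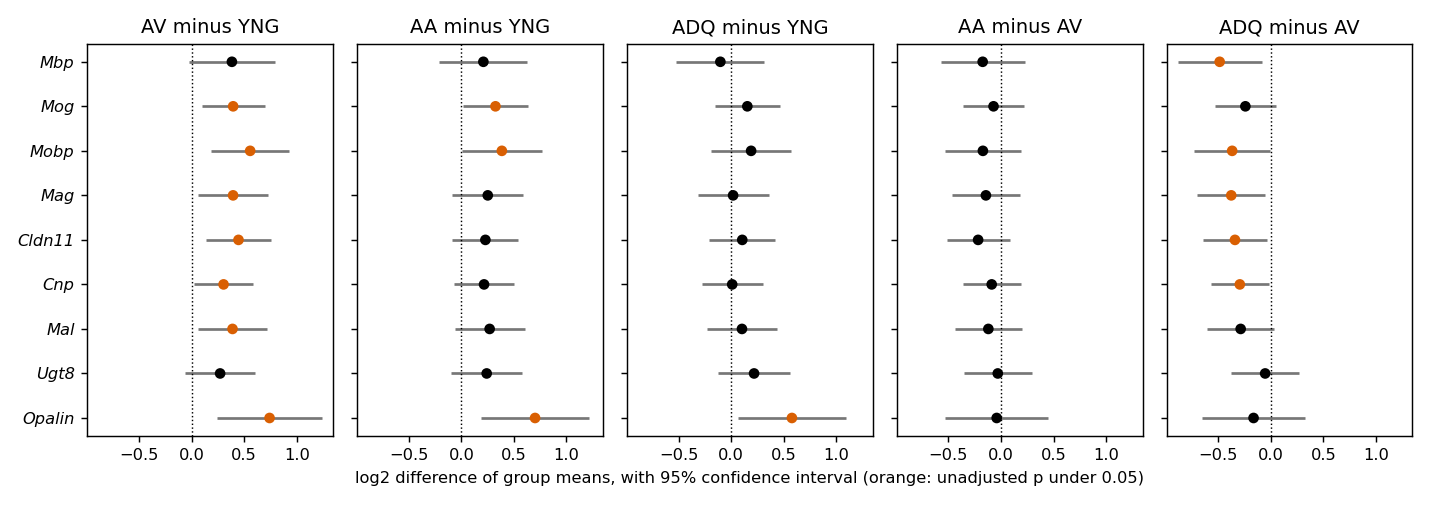
Differences in mean log2(value + 1) between groups for the 9 myelin genes, with 95% confidence intervals from limma. All 9 points lie above 0 in AV minus YNG and AA minus YNG, and all 9 lie below 0 in AA minus AV and ADQ minus AV, although Ugt8 (0.016) and Opalin (0.0054) turn positive in AA minus AV when libraries are scaled to the same total.

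Treated and untreated older rats were compared to see how each senolytic related to the level in AV. In ADQ all 9 genes were below AV, by 0.054 (Ugt8) to 0.49 (Mbp), with a median of -0.29 against 0.0081 over all genes. No gene of the whole table was called in this comparison by limma at the adjusted threshold (0% lower, adjusted p 0.437 to 0.942 for the 9). At the unadjusted threshold 5 of the 9 were lower, where 5.90% of all genes were. They were Mbp (-0.49 ± 0.20 SE, unadjusted limma p = 0.0181), Mag (-0.38 ± 0.16), Mobp (-0.37 ± 0.18), Cldn11 (-0.34 ± 0.15) and Cnp (-0.29 ± 0.14). The count rested on a few rats, being 1 without the AV rat 3989 and 1 without 4571, and 3 without the AV rat 3890 or the ADQ rats 3994, 4006, 4007 or 4032. Other cell types were lower too, with 8 of 10 microglial and 7 of 8 endothelial marker genes below AV at the unadjusted threshold, and their part in the result was not tested. Scaled to the same total the count was 3, and within each of the series it was 0 by limma. Within series a the median was -0.40 with all 9 genes negative. Within series b, where the AV rats had a separate run of numbers, it was -0.24 with Ugt8 (0.11) and Opalin (0.090) positive.

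In AA all 9 genes were below AV, by 0.031 (Ugt8) to 0.22 (Cldn11), except that Ugt8 and Opalin were above it when libraries were scaled to the same total. The median was -0.12 against 0.00093 over all genes. None of the 9 passed either threshold by limma, where 0% of all genes were called lower at the adjusted and 3.1% at the unadjusted one, although 1 passed the latter without the AA rat 4107. AA and ADQ did not separate either. The differences of AA from ADQ were positive for all 9 genes (0.023 to 0.31, median 0.17), with 0 of 9 past either threshold by limma. At the unadjusted threshold 2.13% of all genes were higher in AA than in ADQ, and at the adjusted one 0% were. The 95% interval for Mbp, the largest of these differences, was -0.096 to 0.72. On the log2 scale the group means stood in the order AV, AA, ADQ, YNG for 8 genes, and for Mbp YNG and ADQ changed places. No 2 neighbors in that order differed at the adjusted threshold. By medians the order differed, with AV first for 7 genes and ADQ first for Ugt8 and Opalin.

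Spread between rats set the ADQ group apart as a description, without a test. The SD of log2(value + 1) had a median over the 9 genes of 0.33, 0.49, 0.49 and 0.17 for YNG, AV, AA and ADQ, and each of the 9 was smaller in ADQ than in AV. Over all genes the median SD was 0.31, 0.35, 0.31 and 0.25. The mean log2 level of the 9 genes accordingly ran only from 10.96 to 11.27 in ADQ, but from 10.58 to 11.71 in YNG, from 10.78 to 12.32 in AV and from 10.69 to 12.14 in AA. Around their group means, the 9 genes varied more than 72.7% to 98.6% of genes of similar level (mean log2 within 0.5), with Opalin the most variable (SD 0.61) and Cnp the least (SD 0.34). The 72.7% was for Mbp, which had only 11 genes of similar level, where the others had at least 449.

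Rat by rat, the wide spread came from the same animals in gene after gene. The YNG rat V6 had the highest value of its group for all 9 genes. In AV, rat 4571 was among the top 2 for all 9 and rat 3989 for 8, and in AA the rats 3996 and 4107 held the top 2 places for all 9. For Mobp these rats reached 6157 (V6), 9909 (3989), 9296 (4571), 9075 (3996) and 7417 (4107), beside group medians of 2998, 4020 and 3667 for YNG, AV and AA. For Opalin the same rats reached 1197, 2766, 1898, 1835 and 1470. No ADQ rat stood out in this way, and the one most often first in ADQ, 4005, was first for 3 genes.

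**Figure D3:**
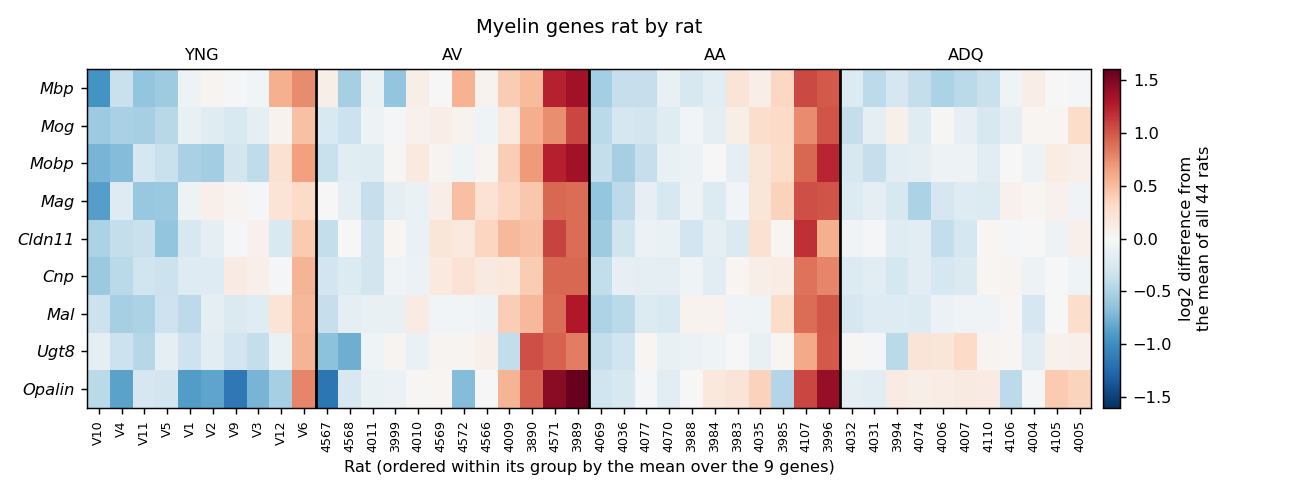
Difference of each rat's log2(value + 1) from the mean over all 44 rats, for the 9 myelin genes (rows) and the rats (columns) ordered within each group by their mean over the genes. The columns of V6 in YNG, 3890, 4571 and 3989 in AV, and 4107 and 3996 in AA are red in nearly every row, and no ADQ column is.

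The 9 genes tracked one another within groups. Deviations from the group means correlated positively in all 36 pairs over the 44 rats, with Pearson r from 0.56 (Mag with Opalin) to 0.95 (Mobp with Mal) and a median of 0.83 (adjusted permutation p 1.2e-05 to 0.0004 over the 36 pairs, two-sided). Spearman's rho ran from 0.30 to 0.92 with a median of 0.70, and its adjusted permutation p was above 0.05 for Mag with Opalin alone (0.0685). Without the 2 rats furthest from the median of the first gene of a pair, r ran from 0.42 to 0.93. Within series a it ran from 0.58 to 0.96 and within series b from 0.50 to 0.94. Mobp followed the mean of the 9 most closely (r = 0.97, which includes Mobp itself), and Ugt8 (0.84) and Opalin (0.85) least.

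The share of a gene's value on each of its table rows, which stand for transcripts that the table does not name, moved little between groups. The highest of 5 rows of Mbp held 41.8% ± 3.1, 42.8% ± 6.1, 44.3% ± 5.2 and 42.4% ± 3.7 (SD) for YNG, AV, AA and ADQ. The higher of 2 rows held between 55.4% and 57.3% of Mag and between 64.0% and 66.0% of Mobp on average in the 4 groups. Opalin was the gene whose proportion to the rest differed most between YNG and the older groups, at -2.24 ± 0.46 log2 units from the mean of the other 8 genes, beside -1.89 ± 0.50 for AV, -1.81 ± 0.29 for AA and -1.75 ± 0.23 for ADQ (SD, log2 levels not corrected for length).

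Other genes of mature oligodendrocytes were taken from a list of 49 symbols, of which 48 identifiers were tested. In AV against YNG 46 of the 48 were positive (median 0.41), where 49.7% of all genes were. At the adjusted threshold by limma 5 rose, where 1.81% of all genes did. The 5 were Hapln2, a link protein at nodes of Ranvier (0.95, adjusted p = 0.0284), Tmem63a, a mechanosensitive channel (0.64, adjusted p = 0.0275), Fa2h, which makes the hydroxylated fatty acids of myelin lipids (0.57, adjusted p = 0.0386), Myrf (0.53, adjusted p = 0.0413) and Ndrg1 (0.45, adjusted p = 0.0167). Tmem63a and Ndrg1 were named after their values were seen. At the unadjusted threshold 27 were higher for AV, 14 for AA and 4 for ADQ, where 10.6%, 12.6% and 13.5% of all genes were. With libraries scaled to the same total these counts, in either direction, were 34, 35 and 15, so that AV no longer led. Over all genes 3474, 5175 and 5220 of 15607 passed with that scaling. With array weights ADQ had 17 of the 48, beside 8101 of 15598 genes. Against AV, 15 of the 48 were lower in ADQ at the unadjusted threshold, where 5.90% of all genes were, and 0 at the adjusted one. Within series a and b the unadjusted count was 3 and 7. The adjusted count in AV was 0 when only the AV and YNG rats were fitted, 1 without V4 and 16 without 4567. The unadjusted counts fell as low as 6 for AA (without 4107), 1 for ADQ (without V1) and 9 for ADQ against AV (without 3989).

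Myrf, the transcription factor of myelin genes, ran from 965.6 to 1869 in YNG (median 1209), from 1167 to 3173 in AV (median 1682), from 1181 to 3406 in AA (median 1412) and from 1268 to 1757 in ADQ (median 1494). Its difference was 0.41 in AA (adjusted limma p = 0.0876) and 0.26 in ADQ (adjusted limma p = 0.253). Hapln2 was 1.11 above YNG in AA (adjusted limma p = 0.0232) and 0.75 in ADQ (adjusted limma p = 0.0575). With the older groups together, 8 of the 48 rose by limma, where 6.65% of all genes did (2 without V1 and 15 without V6), among them Hapln2 (0.94, adjusted p = 0.00567), Fa2h (0.47, adjusted p = 0.0192) and Myrf (0.40, adjusted p = 0.0303).

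**Figure D4:**
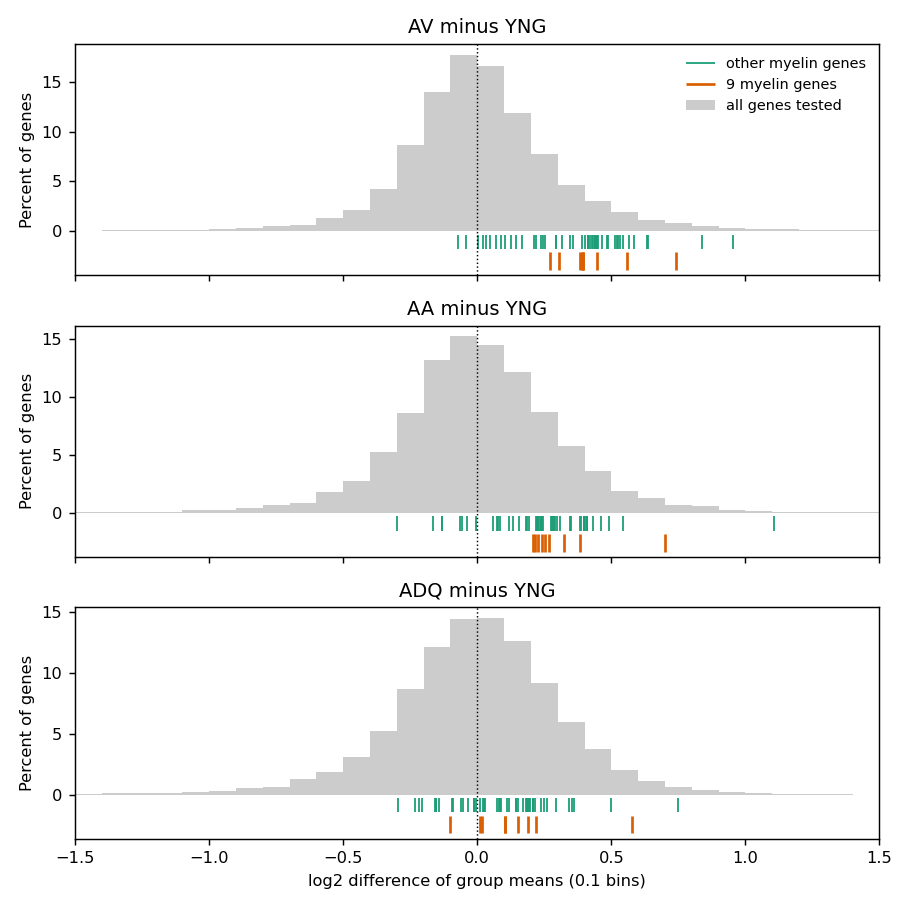
Percent of the 15598 genes tested in each 0.1 bin of the log2 difference from YNG, with ticks under the bars for the 48 other myelin genes (upper ticks) and the 9 myelin genes (lower ticks). The median of the 9 moves from 0.39 in AV to 0.25 in AA and 0.11 in ADQ, while the bars stay centered at 0.

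Of 16 tested precursor genes, 14 were above YNG in AV (median 0.17), 9 in AA (median 0.11) and 8 in ADQ (median -0.0079). Over all genes 49.7%, 50.1% and 50.9% were above YNG in the same order, so the AA and ADQ counts were near that share. In ADQ 15 of the 16 were lower than in AV (median -0.18), where 52.1% of all genes were higher. In AV, 1 of the 16 rose at the adjusted threshold by limma, where 1.81% of all genes did. It was Enpp6 of newly forming oligodendrocytes (0.58, adjusted p = 0.0107). In AA and in ADQ 1 fell at the same threshold, C1ql1, a secreted protein (-0.56, adjusted p = 0.0331, and -0.62, adjusted p = 0.0169), where 2.31% and 3.96% of all genes fell. Both genes were named after their values were seen, and without V1 the count was 0 for AA and 0 for ADQ. Pdgfra, the growth factor receptor that marks precursors, had YNG, AV, AA and ADQ medians of 794.7, 952.1, 794.5 and 864.8, and its difference from YNG was 0.23 in AV (95% interval -0.0023 to 0.47). Cspg4, the NG2 proteoglycan, was 0.058, -0.090 and -0.18 from YNG for AV, AA and ADQ. Olig2, a transcription factor of the whole lineage, was 0.15, 0.25 and -0.087 from YNG, and none of these 3 genes passed the adjusted threshold.

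Of 13704 genes with a mean of at least 20, the 10 non-members most like the mean of the 9 within groups included Gpr37 (r = 0.95), Car2 (0.94), Enpp2 (0.94), Rcan2 (0.93), Fgfr2 (0.92), Myo1d (0.91), Galnt6 (0.91), Pllp (0.91) and Pbld1 (0.91). Gpr37, a receptor of oligodendrocytes, Car2, carbonic anhydrase, Enpp2, which produces lysophosphatidic acid, and Pllp, plasmolipin, were on the list of other myelin genes, and Rcan2, Fgfr2, Myo1d, Galnt6 and Pbld1 were not. The r of each of these stayed at 0.88 or above in series a and at 0.89 or above in series b. Likeness of level over rats did not carry over to the group difference for every gene, since Gpr37 differed from YNG by 0.13 in AV (adjusted limma p = 0.563). The median r of the other myelin genes was 0.78, with 22 of 47 at 0.8 or more, beside a median of -0.0060 and 132 of 13704 at 0.8 or more over all genes.

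Markers of other cells moved with the myelin genes from rat to rat, and their part in the differences between groups was not tested. Each of the 9 genes was set against each of 12 marker lists over the 44 rats (108 relations, deviations from group means). All 9 correlated negatively with the granule cell list (8 genes, r -0.85 to -0.59, rho -0.75 to -0.41, adjusted permutation p for r at most 0.00147 and for rho at most 0.0171). All 9 correlated positively with the CA1 list (8 genes, r 0.67 to 0.78, rho 0.53 to 0.76, adjusted permutation p for r at most 5.84e-05 and for rho at most 0.00081). The CA3 and mossy cell list correlated with none of the 9 at an adjusted permutation p of 0.05 (r -0.069 to 0.22). Without the 2 rats furthest from each list's median, r stayed between -0.84 and -0.52 for granule cells and between 0.61 and 0.76 for CA1. In series a and in series b, r lay at -0.47 or below and -0.57 or below for granule cells, and at 0.73 or above and 0.63 or above for CA1.

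The rats that led the myelin genes stood at or near the extremes of these lists. Rat 4107 had a Prox1 value of 608.7 and a Wfs1 value of 23420, the lowest and the highest of all groups. The mean log2 level of the granule cell list was 8.67 in 3989, 8.95 in 4571, 8.89 in 3996 and 8.32 in 4107, below the lowest YNG and ADQ rats (9.37 and 9.26). That of the CA1 list was 10.37, 9.97, 9.96 and 11.08 in the same rats, above the highest YNG and ADQ rats (9.71 and 9.22). The AV rat 3890 was above 4571 and 3996 on the CA1 list (10.07), with 9.44 on the granule cell list. Between groups, no CA1 gene of the list was called in any comparison by limma at either threshold, and 1 of 8 granule cell genes fell in AV against YNG, where 0.539% of all genes fell, and 2 of 8 in ADQ, where 3.96% did.

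**Figure D5:**
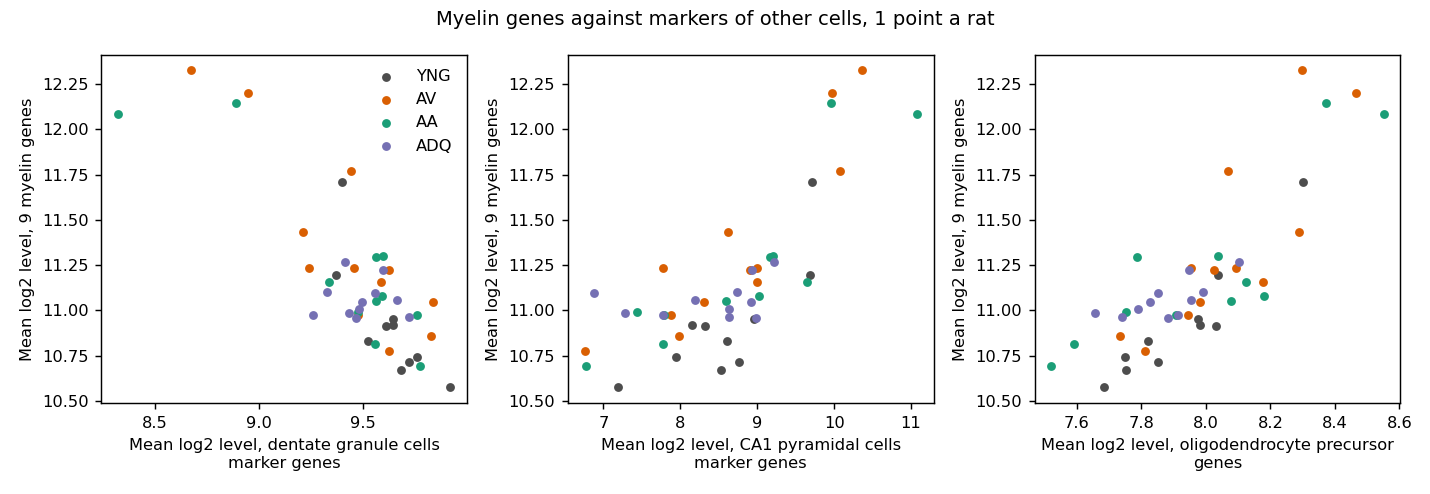
Mean log2 level of the 9 myelin genes in each of 44 rats against the mean log2 level of granule cell markers (left), CA1 pyramidal cell markers (middle) and oligodendrocyte precursor genes (right), colored by group. The 4 rats above 12 on the vertical axis, 2 AV and 2 AA, are the 4 furthest left in the granule cell plot.

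Glial lists were correlated too. Precursor genes had r from 0.61 to 0.83 with the 9 genes (adjusted permutation p at most 9.82e-05) and astrocyte genes from 0.60 to 0.80 (adjusted permutation p at most 0.000254). Microglial genes had r from 0.23 to 0.67, with 7 of the 9 below an adjusted permutation p of 0.05. Endothelial genes had r from 0.18 to 0.52, with 7 of 9 below that threshold by r and 3 of 9 by rho. Choroid plexus genes had r from -0.23 to 0.038, and none of the 9 passed. The meningeal list gave 6 of 9 and the list of immediate early genes 5 of 9 by r, of which rho kept 1 for the latter. For peripheral myelin, r with the Schwann cell list was 0.39 to 0.61 with 9 of 9 past the threshold by r, but only 4 of its 8 genes were tested. Of that list, Pmp2 was at 0 in 7 rats, with group medians of 1.17 to 2.83.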

How the data were processed

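Libraries were made from poly(A) RNA of the DG, 1 per rat, and sequenced on an Ion platform. The authors trimmed reads, aligned them to rn6 with STAR 2.5.3a (per the labels) in Partek Flow, and deposited a table of median ratio normalized signal, gene counts divided by size factors. Low values were whole multiples of a single read's value in only 78.7% to 84.1% of cases (tolerance 0.05), so reads were not recovered and no count model was used.

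The 24694 rows were summed to 18347 identifiers. Genes with a mean of at least 5 (15598) were tested on log2(value + 1) with limma 3.58.1 (R 4.3.3, empirical Bayes with trend), all 44 rats in 1 fit, two-sided, Benjamini-Hochberg adjusted over all genes. Differences are on that log2 scale, and "rose" or "fell" means an adjusted p under 0.05. Each rat counted as 1 replicate. The other named genes were Myrf, Hapln2 and Fa2h from the list of other myelin genes, and those among the 10 non-members of highest r. Some items that these rules name are not reported here. Correlations used 100000 permutations within groups (smallest p 1e-05, scipy 1.17.1), adjusted within each family.

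The 9 genes and all lists were chosen with earlier results of these data known. In data simulated for AV against YNG over 15598 genes, 85% of 200 genes changed by 1 log2 unit were recovered. In the same data 8 unchanged genes were called. The 9 myelin genes differed by 0.27 to 0.74 in AV against YNG, and recovery at changes of that size was not tested. Left out were pathway tests, and the promoter of Mog. The alternatives tried were 13 settings and leaving out each rat.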

Additional observations from a re-analysis of the deposited data

Results flagged for a closer look

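The YNG rat V6 stood far from the other 9 YNG rats for 2 of the 9 genes, judged on log2(value + 1). Its Ugt8 value was 735.8 and the next highest 469.3, a gap of 0.6511 of the group's range on the log2 scale (0.726 on the normalized values). Its Opalin value was 1197 and the next highest 579.9, a gap of 0.5444 of the range on the log2 scale (0.7003 on the normalized values). Dixon's critical value for 10 samples is 0.466, and chance alone flags about 1 in 20 groups. On the normalized values, a scale added after the data were seen, Mog in V6 also passed (0.4894). Only the YNG group was small enough for this rule, so 9 sets of values were examined. V6 was also the highest YNG rat for the other 7 genes, and leaving it out raised the adjusted calls against YNG to 3 in AV, 1 in AA and 3 in the older groups together.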

How the results depend on the processing

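No paired analysis was possible because the labels give no replicate numbers shared between groups. Of the single-gene differences of AV from YNG under 13 alternatives, 106 of 117 kept direction and side of the threshold and 11 newly passed it. In the older groups together 99 of 108 did, 8 newly passed and 1 no longer passed. Causes were not tested.

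Adjusted calls among the 9 genes (0 in AV, AA and ADQ and 1 in the older groups together, each against YNG) became 3, 2, 0 and 7 with libraries scaled to the same total. With that scaling the median difference of all genes was 0.10, 0.15, 0.15 and 0.13, beside -0.0017, 0.00067, 0.0057 and 0.0039 in the main fit. That scaling called 730, 1853, 2253 and 3548 of 15607 genes, in either direction. With array weights the calls among the 9 were 6, 1, 1 and 3, a setting that called 6324, 5564, 7012 and 7686 of 15598 genes. The main fit called 367, 601, 1104 and 2321. Among the 9 the calls were 2 in AV within series a, 0 in the older groups within series b, and 1 in ADQ when only the groups compared were fitted.

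The other myelin genes (5, 1, 0 and 8) gave 19, 16, 3 and 26 with the same total, 22, 8, 7 and 19 with array weights, and 11, 4 and 1 for AV, AA and ADQ with series as a covariate. Calls over all genes for the first 2 of these settings are given above, also for the precursor genes below. Series as a covariate called 676, 1300 and 1698 of 15598 genes, and series a alone 2895, 1560 and 1595 of 15646. Within series a the other myelin genes gave 8, 4 and 1 in AV, AA and ADQ, and within series b 0 in AV, AA and the older groups. In AV they were 9 with upper quartile scaling and 0 with only the groups compared, in ADQ 3 with only the groups compared, and in the older groups 5 with the highest row of each gene. Precursor genes (1, 1, 1 and 2) gave 7, 4, 5 and 8 with array weights, 0 in all within series b, 6 in AV, 2 in AA and 4 in the older groups within series a, 0 in AV with only the groups compared, 2 in AA, 2 in ADQ and 4 in the older groups with the same total, and 2 in AA with series as a covariate.

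With 1 rat left out, calls among the 9 genes ranged from 0 to 3 in AV, 0 to 1 in AA and 0 to 3 in the older groups, with 0 throughout for ADQ, those of other myelin genes from 1 to 16, 0 to 6, 0 to 1 and 2 to 15, and those of precursor genes from 1 to 2, 0 to 2, 0 to 1 and 1 to 4. No gene of the 3 lists was called between older groups by limma in any of these fits without 1 rat.

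In ADQ against YNG, Mbp was 0.038 with the same total and 0.022 within series b, Mag was -0.037 with the highest row, -0.087 with array weights and -0.064 within series a, and Cnp was -0.092 within series a. In AA against AV, Mag was 0.032 within series a, Ugt8 was 0.016 with the same total and 0.0081 within series b, and Opalin was 0.0054 with the same total and 0.22 within series b. In ADQ against AV, Ugt8 was 0.013 with array weights and 0.11 within series b, and Opalin was 0.090 within series b. In AA against ADQ, Ugt8 was -0.11 with array weights and -0.10 within series b. With 1 rat left out, signs turned in 13 single-gene values of ADQ against YNG (Mag -0.061 to 0.072, Cnp -0.042 to 0.085), in 12 of AA against AV (Mog -0.16 to 0.011, Ugt8 -0.12 to 0.056, Opalin -0.17 to 0.12), in 3 of ADQ against AV (Ugt8 -0.13 to 0.033) and in 3 of AA against ADQ (Ugt8 -0.069 to 0.066).

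The correlation of the mean of the 9 genes with the CA3 list (0.11) was -0.12 within series a. That with microglial genes was 0.50 within series a, that with endothelial genes 0.24 without the 2 furthest rats and 0.45 within series b, that with meningeal genes 0.30 and 0.38 within series a and b, and that with immediate early genes 0.28 without the 2 furthest rats and 0.21 within series a.

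Depth is known only as an estimate, series and rat numbers cannot be linked to a sequencing run, and the values hold no transcript lengths.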
